A study of Mus musculus with 8 samples.

Results

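The granins and the genes that process prohormones were described here as a group of 10 genes among the 38553 of the deposited table. The group held 6 granins (Chga, Chgb, Scg2, Scg3, Scg5 and Vgf) and 4 processing genes (Pcsk1, Pcsk2, Pcsk1n and Cpe). They were picked by name as cargo and enzymes of dense-core vesicles, at a time when their dorsal and ventral levels were already known. For this reason the difference of these 10 genes between the regions is given as a description, with no p-value. All 10 were among the 13674 genes that had enough alignments for the authors' test and a mean of at least 1 FPKM, a level scaled for transcript length and for the fragments mapped in a library.

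The RNA came from the dorsal and the ventral medial entorhinal cortex (MEC), the cortical area in which grid cells are found, of male C57BL/6JolaHsd mice aged 8 weeks, for which no transgene or treatment is named. The tissue was cut from slices of the right hemisphere, 1 for each of 13 mice, and combined into 4 pools of 3 or 4 mice, which gave 4 dorsal and 4 ventral libraries. Each library therefore averages several animals and all layers and cell types of its piece of cortex, so that fewer cells of a type and less RNA per cell cannot be told apart.

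Granins are acidic proteins that gather with peptide precursors in the trans-Golgi network and are packed into dense-core vesicles, the organelles from which neurons and endocrine cells release peptides. Inside the vesicle the convertases PC1 and PC2 (Pcsk1 and Pcsk2) cut precursors after pairs of basic residues, and carboxypeptidase E (Cpe) then trims those residues. Each convertase has a partner of its own, proSAAS (Pcsk1n) as an inhibitor of PC1 and 7B2 (Scg5) as a chaperone and inhibitor of PC2.

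The region of a library was the one whose authors' mean it belongs to, and this differs from the column header for 4 of the 8 libraries. The mean of the columns headed D1, V1, D2 and V2 equalled the authors' dorsal mean and that of D3, V3, D4 and V4 their ventral mean for 21861 of 21876 genes within 0.1%, against 326 genes for the regions that the headers name. Libraries are called by their headers, so that V1 and V2 are dorsal and D3 and D4 ventral. Pearson correlations of library pairs were 0.977 to 0.985 within dorsal, 0.971 to 0.984 within ventral and 0.965 to 0.982 across regions. Read totals cannot be read from FPKM, and so the counting depth behind each value is unknown. Markers of the labelled tissue were present, the sum of 7 glutamatergic markers being 601 to 778 FPKM, while 6 oligodendrocyte markers summed to 557 to 752 FPKM in the dorsal and 305 to 401 FPKM in the ventral libraries.

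Chgb and Pcsk1 had the widest dorsoventral differences of the group, both with higher FPKM dorsally (D>V), whereas the abundant Cpe and Scg3 had nearly equal means in the 2 regions. The ventral mean of Chgb was 38.4% below the dorsal mean and that of Pcsk1 30.0% below. Of the 10 genes, 7 had a lower mean ventrally, compared with 51.2% of all genes tested, and 3 a higher mean (Scg2, Pcsk1n and Cpe). The median log2(V/D), the log2 ratio of the mean ventral to the mean dorsal FPKM, was −0.18 over the 10 genes and −0.01 over all genes tested.

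Genes were called when limma's adjusted p was under 0.05 and the means differed by at least 20%. Chgb and Pcsk1, 2 of the 10 genes (20%), met this as D>V and 0 as V>D, where 3.6% of all genes tested were called in either direction and 2.15% as D>V. The libraries of the regions did not overlap for 4 genes (Chga, Chgb, Pcsk1 and Pcsk2), each with the dorsal libraries higher, beside 11.1% of all genes tested in either direction and 6.17% with dorsal higher. Since the group was chosen with this contrast known, nothing is read from these shares.

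**Figure D1:**
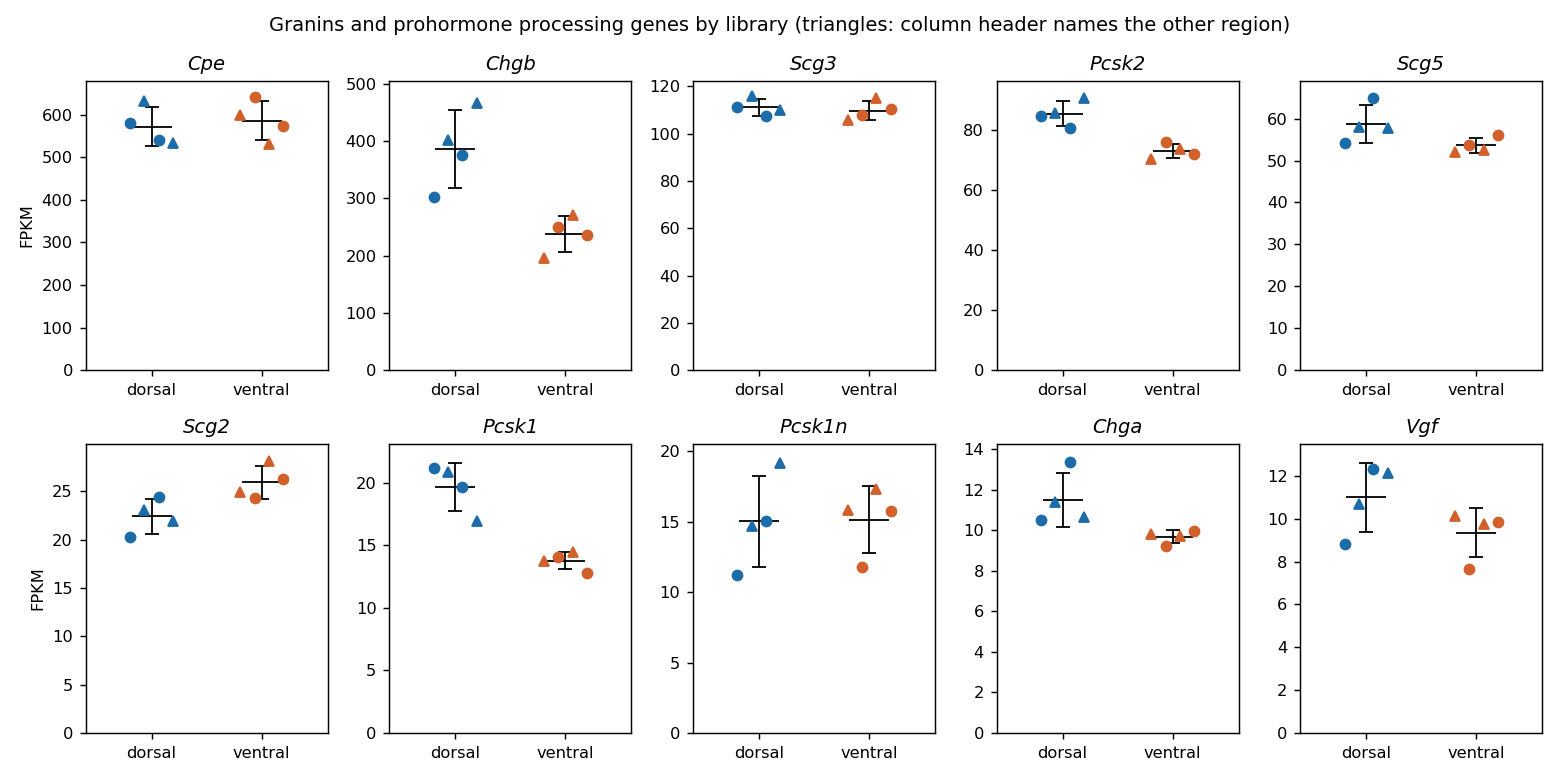
FPKM (y axis, from 0) of each of the 10 genes in the 4 dorsal and 4 ventral libraries, in order of mean FPKM. Points are libraries (triangles where the column header names the other region), and bars are the mean ± SD. Chgb, Pcsk1, Pcsk2 and Chga have no overlap between regions, and the 2 regions of Cpe and Scg3 lie at nearly the same level.

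The promoters of these genes are shown because cAMP-responsive transcription is a known property of several of them, and because the called and the not called genes can be read side by side. RefSeq windows of 250 bases before the transcription start (GRCm38.p6) were found for 8 of the 10 genes, the exceptions being Vgf and Cpe. The RefSeq start can differ from the start of the Ensembl gene span behind the FPKM. It lies 10657 bases inside the span of Pcsk2, 364 inside that of Chgb, 64 inside that of Scg2, 31 inside that of Pcsk1 and 28 bases before that of Chga. The windows of the called genes Chgb (chr2:132781392-132781641, plus strand) and Pcsk1 (chr13:75089607-75089856, plus strand) are followed by those of Scg2 (chr1:79440027-79440276, minus strand), a granin with a higher ventral mean, and of Chga (chr12:102554691-102554940, plus strand) and Pcsk2 (chr2:143545883-143546132, plus strand), whose libraries did not overlap but which were not called. Each runs from 5′ to 3′ up to the base before the start, with the letters of the cAMP response element, TGACGTCA or its first 6 letters TGACGT on either strand, in capitals.
Chgb: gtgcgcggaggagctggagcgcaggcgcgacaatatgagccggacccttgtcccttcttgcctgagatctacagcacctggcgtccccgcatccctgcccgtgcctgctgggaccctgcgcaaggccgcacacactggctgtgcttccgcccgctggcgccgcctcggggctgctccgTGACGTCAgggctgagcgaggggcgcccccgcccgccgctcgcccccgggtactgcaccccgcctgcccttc
Pcsk1: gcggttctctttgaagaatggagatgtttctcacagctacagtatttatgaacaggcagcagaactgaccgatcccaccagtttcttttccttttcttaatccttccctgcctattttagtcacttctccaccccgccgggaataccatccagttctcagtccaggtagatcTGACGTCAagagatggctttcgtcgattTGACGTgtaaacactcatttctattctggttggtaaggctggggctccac
Scg2: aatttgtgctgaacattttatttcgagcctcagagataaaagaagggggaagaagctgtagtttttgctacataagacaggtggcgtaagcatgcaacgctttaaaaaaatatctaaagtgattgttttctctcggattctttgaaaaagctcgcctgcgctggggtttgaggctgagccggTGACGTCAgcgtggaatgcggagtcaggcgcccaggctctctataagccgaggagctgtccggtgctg
Chga: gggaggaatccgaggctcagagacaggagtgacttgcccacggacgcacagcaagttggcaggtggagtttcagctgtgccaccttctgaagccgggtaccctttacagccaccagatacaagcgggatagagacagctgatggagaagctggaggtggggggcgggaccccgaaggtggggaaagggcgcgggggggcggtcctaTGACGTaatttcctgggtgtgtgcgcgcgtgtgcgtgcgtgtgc
Pcsk2: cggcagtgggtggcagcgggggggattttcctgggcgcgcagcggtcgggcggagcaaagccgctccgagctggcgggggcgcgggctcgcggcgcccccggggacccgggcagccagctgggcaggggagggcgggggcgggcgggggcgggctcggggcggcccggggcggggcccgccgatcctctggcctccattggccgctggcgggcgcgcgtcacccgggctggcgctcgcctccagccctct

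The whole element TGACGTCA stood in 3 of the 8 windows, 72 bases before the start in Chgb, 68 in Scg2 and 78 in Pcsk1, and in 1.55% of 32851 RefSeq windows of the same length. The first 6 letters TGACGT, searched on both strands and contained in the whole element, were found in 5 of the 8 windows and in 6.47% of all windows. Chga held them 44 bases and Scg5 175 bases before the start, and Pcsk1 had a further copy at 50 bases. Of the 3 genes with the whole element, Chgb and Pcsk1 had higher dorsal means without overlap between regions. Scg2 had a lower dorsal mean, with overlap, and was not called. The part of the element in these levels was not tested. The windows of Scg3, Pcsk2 and Pcsk1n held neither form.

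**Figure D2:**
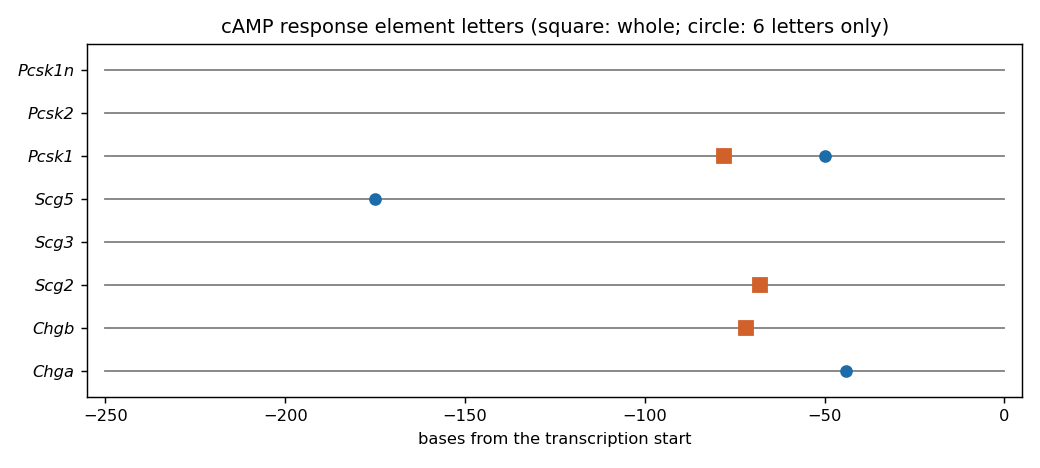
Position of the cAMP response element letters in the 250 bases before the transcription start of 8 genes (x axis, bases from the start). Squares are whole elements and circles the 6 letters alone. The whole elements of Chgb, Scg2 and Pcsk1 lie 68 to 78 bases before the start.

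Chgb (ENSMUSG00000027350, chr2:132781278-132795079, GRCm38) encodes chromogranin B, a granin that helps to form the dense core and is itself cut into peptides. It was the granin with the highest level, with 302, 401, 375 and 467 FPKM in the dorsal libraries D1, V1, D2 and V2 and 196, 250, 270 and 236 FPKM in the ventral libraries D3, V3, D4 and V4. The lowest dorsal library, D1, was above the highest ventral library, D4. Means were 386 ± 68.3 and 238 ± 31.3 FPKM (SD, n = 4 each), a log2(V/D) of −0.70. Chgb varied widely within regions as well, since 88.9% of the 99 genes of like FPKM (within 1.5 times) had a smaller spread between libraries of a region.

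The call of Chgb depended on single libraries. Leaving out each library in turn kept log2(V/D) between −0.80 and −0.59, but Chgb stayed called in 3 of the 8 cases. It was no longer called without V1 (−0.68), D2 (−0.71), V2 (−0.59), D3 (−0.62) or V4 (−0.69). Pcsk1 was called in all 8 cases, at −0.58 to −0.48.

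Scg3 (ENSMUSG00000032181), which binds chromogranin A and cholesterol-rich granule membrane, was the second granin by level. It stood at 111, 116, 107 and 110 FPKM dorsally and at 106, 108, 115 and 110 FPKM ventrally. The regions overlapped almost completely, with a log2(V/D) of −0.02. Only 4.1% of the 487 genes of like FPKM had a smaller spread within regions.

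Scg5 (ENSMUSG00000023236) had 54.1, 57.9, 65.0 and 57.7 FPKM dorsally and 52.1, 53.8, 52.5 and 56.2 FPKM ventrally. The regions overlapped because the ventral V4 lay above the dorsal D1. The log2(V/D) was −0.13, at means of 58.7 ± 4.58 and 53.7 ± 1.81 FPKM.

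Scg2 (ENSMUSG00000050711), secretogranin II and the precursor of secretoneurin, was the granin with a higher ventral mean. Dorsal libraries had 20.2, 23.1, 24.4 and 21.9 FPKM and ventral libraries 25.0, 24.3, 28.1 and 26.3 FPKM. The overlap was slight, with the ventral V3 just under the dorsal D2. Means of 22.4 ± 1.77 and 25.9 ± 1.67 FPKM gave a log2(V/D) of 0.21, opposite in sign to that of Chgb and short of the 20% difference, which is 0.263 on this scale.

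Chga (ENSMUSG00000021194, chr12:102554969-102565027), chromogranin A, was far less abundant than Chgb. It had 10.5, 11.4, 13.4 and 10.7 FPKM in dorsal and 9.82, 9.23, 9.72 and 9.94 FPKM in ventral libraries. All ventral values lay within 1 FPKM of each other and below every dorsal value. The log2(V/D) was −0.25, and Chga was not called.

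Vgf (ENSMUSG00000037428), a granin-like precursor that neurotrophins induce, was the least abundant of the 10 genes. Its dorsal values were 8.83, 10.7, 12.3 and 12.1 FPKM and its ventral values 10.1, 7.63, 9.75 and 9.86 FPKM. The regions overlapped at the dorsal D1, and the ventral V3 stood apart from the other ventral libraries. The log2(V/D) was −0.23, with means of 11.0 ± 1.62 and 9.34 ± 1.15 FPKM.

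Among the processing genes, Pcsk1 (ENSMUSG00000021587, chr13:75089826-75132498) had the widest difference. PC1 makes the early cuts of many precursors. The dorsal libraries held 21.2, 20.8, 19.7 and 17.0 FPKM and the ventral libraries 13.7, 14.1, 14.4 and 12.8 FPKM. The lowest dorsal library, V2, was above all ventral libraries, which differed little among themselves. Means were 19.7 ± 1.92 and 13.8 ± 0.703 FPKM, a log2(V/D) of −0.51. With every library rescaled to 1 total FPKM the ratio was −0.47 and Pcsk1 was not called, while Chgb was still called at −0.64, where 2.9% of all genes tested were called in either direction.

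Pcsk2 (ENSMUSG00000027419, chr2:143535476-143816285) showed a narrower but clean separation. PC2 acts later in the vesicle than PC1 and makes smaller peptides such as opioids. FPKM were 84.8, 85.6, 80.7 and 90.8 dorsally and 70.4, 76.0, 73.9 and 72.1 ventrally. No ventral library reached the lowest dorsal one. Means of 85.5 ± 4.11 and 73.1 ± 2.39 FPKM gave a log2(V/D) of −0.23, under the 20% difference, and Pcsk2 was not called. Without a limit on the difference it was not called either, as the members called D>V stayed at 2. Exons of Pcsk2 overlap the antisense genes Pcsk2os1 and Pcsk2os2, and strand keeping is not stated, so reads of these genes cannot be told apart.

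Pcsk1n (ENSMUSG00000039278), the PC1 inhibitor precursor, varied most within regions. It had 11.3, 14.7, 15.0 and 19.2 FPKM in dorsal and 15.8, 11.8, 17.3 and 15.8 FPKM in ventral libraries. The highest and the lowest of these 8 values were both dorsal. Means were 15.0 ± 3.24 and 15.2 ± 2.38 FPKM, and 94.9% of 2952 genes of like FPKM had a smaller spread. The sign of its log2(V/D), 0.01, held in 4 of the 8 cases with a library left out. An exon overlaps Eras on the opposite strand, with the same limit as for Pcsk2.

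Cpe (ENSMUSG00000037852) was the most abundant gene of the group, above 99.8% of all genes tested. Libraries had 581, 632, 540 and 534 FPKM dorsally and 598, 641, 532 and 572 FPKM ventrally. The lowest and the highest of the 8 values were both ventral, and the ranges overlapped almost completely. The log2(V/D) was 0.04, with means of 571 ± 45.4 and 586 ± 45.7 FPKM.

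**Figure D3:**
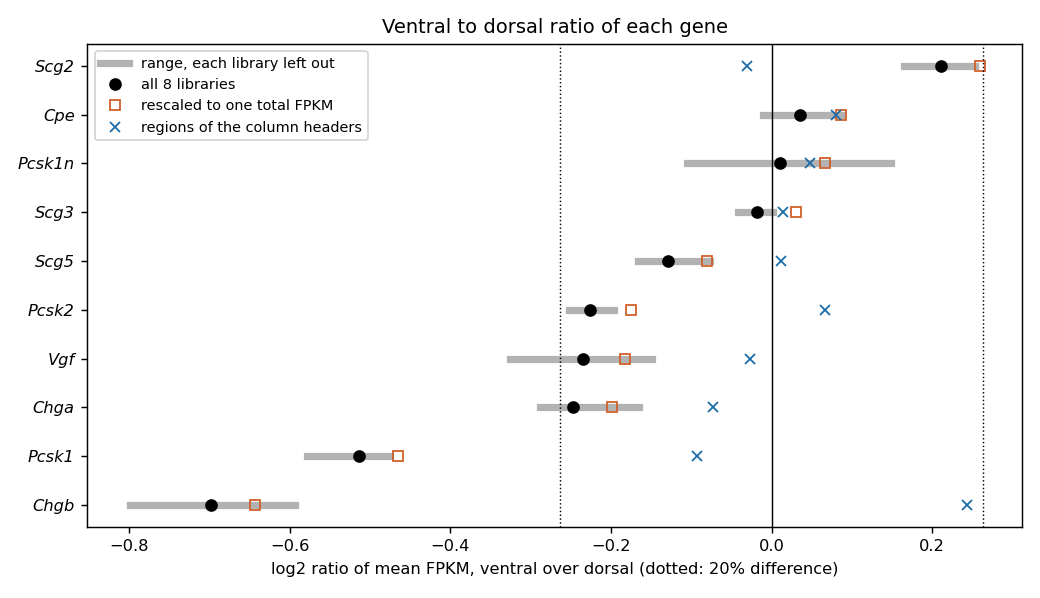
log2 ratio of the mean ventral to the mean dorsal FPKM (x axis) of the 10 genes. Black points use all 8 libraries, grey bars span the values with each library left out, squares follow rescaling to 1 total FPKM, crosses take the regions of the column headers, and dotted lines mark a 20% difference. Chgb (−0.70) and Pcsk1 (−0.51) lie beyond the left line, but their crosses (0.24 and −0.09) do not.

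All ratios rest on the assignment of libraries to regions. With the regions of the column headers the log2(V/D) of Chgb was 0.24 and that of Pcsk1 −0.09, and none of the 10 genes was called. The sign changed for 5 of the 10 genes, the others being Scg2 (−0.03), Scg3 (0.01), Scg5 (0.01) and Pcsk2 (0.07). In the 4 libraries whose header and authors' mean name the same region (D1, D2, V3 and V4), Chgb was at −0.48, Pcsk1 at −0.60 and Scg2 at 0.18, and all 10 genes kept the sign of the 8 libraries. For Chga, Chgb, Pcsk1 and Pcsk2 the sign could not change in this subset, since their libraries did not overlap between regions. With 2 libraries against 2, limma called 0 of all genes tested.

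The difference in total granin message came mostly from Chgb. The 6 granins summed to 507, 620, 597 and 680 FPKM dorsally and 399, 453, 485 and 449 FPKM ventrally, without overlap. Without Chgb, the other 5 summed to 215 ± 7.69 FPKM dorsally and 208 ± 6.43 FPKM ventrally, with overlap. Chgb made up 63.9% ± 3.83 of the granin FPKM in dorsal and 53.2% ± 3.00 in ventral libraries, without overlap. With the other 5 nearly level, the sum and this share restate the difference of Chgb and are no separate result. Relative to Scg3, the granin with the steadiest level, Chgb was 3.48 ± 0.625 times as high dorsally and 2.16 ± 0.229 times ventrally.

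The balance of the convertases shifted less clearly. Pcsk2 had 4.00, 4.11, 4.10 and 5.35 times the FPKM of Pcsk1 in dorsal libraries and 5.13, 5.38, 5.11 and 5.62 times in ventral ones. The dorsal V2 lay inside the ventral range and the other dorsal libraries below it. The ratio of each partner to its convertase overlapped between regions, at 0.783 ± 0.252 dorsally and 1.10 ± 0.183 ventrally for Pcsk1n over Pcsk1, and at 0.689 ± 0.0800 and 0.735 ± 0.0331 for Scg5 over Pcsk2. Cpe over Pcsk2 was 6.70 ± 0.620 and 8.02 ± 0.599, with overlap.

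The genes spanned a wide range of levels per transcript length in every library. In order of mean FPKM over the 8 libraries they were Cpe, Chgb, Scg3, Pcsk2, Scg5, Scg2, Pcsk1, Pcsk1n, Chga and Vgf. Since the order was set from these values, and the dorsal and ventral libraries came from the same 4 pools of mice (4 independent pools allow no 2-sided sign-flip p under 0.125), neighbours were compared by their values and not tested. The first of the pair was higher in 8 of 8 libraries for Cpe over Chgb (1.92 times by geometric mean), Chgb over Scg3 (2.72 times), Scg3 over Pcsk2 (1.40 times), Pcsk2 over Scg5 (1.41 times), Scg5 over Scg2 (2.33 times) and Pcsk1n over Chga (1.42 times). Scg2 exceeded Pcsk1 in 7 of 8 libraries (1.46 times), the exception being D1. The neighbours with mixed order were Pcsk1 over Pcsk1n, higher in 4 of 8 libraries (1.10 times), and Chga over Vgf, higher in 5 of 8 (1.05 times), whose differences were within their spread between libraries.

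Markers of oligodendrocytes, the myelinating glia, moved with Chgb. The 6 markers Mbp, Mog, Mag, Cnp, Mobp and Opalin all fell ventrally by limma, and their sum was 557, 696, 752 and 724 FPKM in D1, V1, D2 and V2 and 305, 376, 401 and 389 FPKM in D3, V3, D4 and V4. Relative to the mean of the 8 libraries, Chgb was at 0.968, 1.28, 1.20 and 1.5 and the marker sum at 1.06, 1.33, 1.43 and 1.38 in the dorsal libraries. Ventrally Chgb was at 0.629, 0.800, 0.866 and 0.756 and the sum at 0.582, 0.717, 0.764 and 0.740. Both were lowest dorsally in D1 and lowest ventrally in D3. These 2 libraries also had the lowest total FPKM of their regions (310420 in D1 and 298760 in D3). Within the dorsal libraries Pcsk1 ran otherwise, highest in D1 (1.27) and lowest in V2 (1.01). The part of the oligodendrocyte markers, or of the library totals, in the levels of Chgb and Pcsk1 was not tested.

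The other marker sums differed less or had low levels. The 8 GABAergic markers summed to 215 ± 2.71 FPKM dorsally and 228 ± 3.77 FPKM ventrally, with 0 called by limma and 4 at an unadjusted p under 0.05. Of the 7 leptomeningeal markers, Dcn and Igfbp2 were called V>D and the sum was 42.7 ± 3.42 and 72.7 ± 4.71 FPKM. Of 6 hippocampal and subicular markers, Fibcd1 and Fn1 were called V>D, at sums of 16.2 ± 1.84 and 22.9 ± 3.19 FPKM. Fn1 held most of these sums (10.8 and 16.6 FPKM). Prox1 had a lower ventral mean (4.48 and 3.49 FPKM) and was not called. Dsp, Lct and C1ql2 had means under 1 FPKM, with Dsp and Lct lower and C1ql2 higher ventrally. With a library left out Igfbp2 was called in 0 of 8 cases (0.36 to 0.44) and Fn1 in 1 of 8, without V4 (0.51 to 0.71). Astrocyte (322 and 346 FPKM), microglial (49.1 and 54.2 FPKM) and endothelial and mural sums (53.6 and 45.3 FPKM) held no called gene, and of the glutamatergic markers Slc17a6 was called D>V. Of the 6 choroid plexus markers (sums of 1.48 and 2.18 FPKM) 5 had means under 1 FPKM. Only 1, Kl, was tested, and it was not called. Prlr, not tested, had 0.185 FPKM dorsally and 0.902 FPKM ventrally without overlap, while Ttr, Folr1 and Kcne2 had lower ventral means. The part of these lists in the results was not tested.

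**Figure D4:**
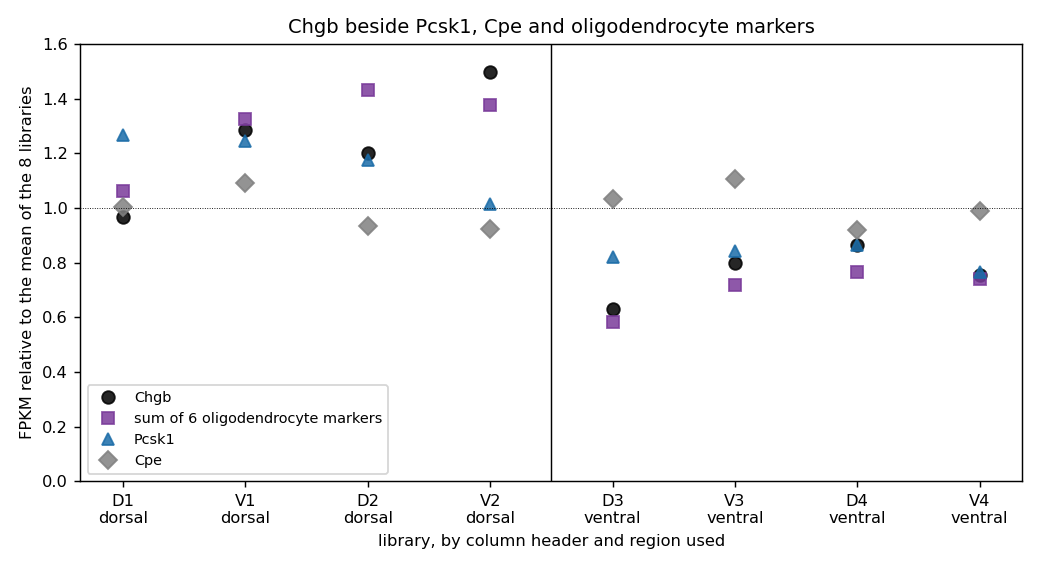
FPKM relative to the mean of the 8 libraries (y axis) of Chgb, Pcsk1, Cpe and the sum of 6 oligodendrocyte markers in each library (x axis, header and region used). Chgb is highest in V2 and the marker sum in D2, both are lowest in D3, whereas Cpe stays between 0.919 and 1.11 in both regions.

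The genes with the profile most like that of Chgb over the 8 libraries, by the root mean square difference of centred log2(FPKM + 1), were Gjc3 (0.0625), Sept4 (0.0788), Enpp2 (0.0911), Rasd2 (0.112) and Gm5457 (0.116), where the profile of Chgb itself had a root mean square of 0.398. Gjc3 encodes the oligodendrocyte connexin of the mouse brain and Enpp2 the enzyme autotaxin. For Pcsk1, with a root mean square of 0.258, the nearest genes were 4930500J02Rik (0.0326), Kank4 (0.0557), Gamt (0.0608), Abcd2 (0.0717) and Eng (0.0751). Profiles were centred over all 8 libraries and not within regions, so the difference between regions is part of each distance. These distances describe 13664 genes over 8 libraries and were not tested.

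None of the other enzymes of propeptide processing was called. Of 26 further processing genes 24 were tested, with 0 called in either direction by limma, beside 3.6% of all genes tested. Of these 24, 4 had a limma unadjusted p under 0.05. The libraries of the regions did not overlap for 3 (Cpm, Pcsk5 and Qpct), beside 11.1% of all genes tested. The median log2(V/D) was 0.01. Cathepsin B and cathepsin L (Ctsb and Ctsl) and the amidating enzyme Pam had 62.8, 44.3 and 56.4 FPKM dorsally and 56.6, 39.2 and 51.9 FPKM ventrally. The lowest ratios were those of the carboxypeptidase Cpm (−0.73, limma adjusted p = 0.0894) and of Cpxm2 (−0.55, limma adjusted p = 0.387), and the highest that of the convertase Pcsk5 (0.41, limma adjusted p = 0.137). Of 16 tested peptidases that degrade released peptides, limma called 0, with 3 at an unadjusted p below 0.05, at a median log2(V/D) of −0.03. The regions did not overlap for 2 of the 16. The most abundant were Prepl (167 and 161 FPKM, −0.05), Npepps (72.4 and 71.0 FPKM, −0.03) and Lnpep (27.4 and 24.1 FPKM, −0.18). With lists this small and 3.6% of all genes tested called, nothing is read from either 0.

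The peptide precursors on which this machinery acts had called genes in both directions. Their mixed direction was known when the group was chosen, so they too are described without p-values and nothing is read from their share. Of 59 precursors 40 had a mean under 1 FPKM, and of the 19 tested 2 were D>V and 6 V>D (42.1%, beside 3.6% of all genes tested), at a median log2(V/D) of 0.25. Npy, neuropeptide Y, had 15.6, 20.7, 18.1 and 19.1 FPKM in dorsal and 7.76, 8.04, 8.69 and 11.8 FPKM in ventral libraries (log2(V/D) −1.02). Apln, the apelin precursor, had means of 3.85 ± 0.284 FPKM dorsally and 2.29 ± 0.252 FPKM ventrally (−0.75). Neither Npy nor Apln overlapped between regions.

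Sst, the somatostatin precursor, was higher ventrally and the most abundant of the called precursors. It had 81.6, 97.1, 109 and 150 FPKM in dorsal and 169, 207, 262 and 243 FPKM in ventral libraries (log2(V/D) 1.01). The regions did not overlap, but the call was lost without V1, where log2(V/D) ranged from 0.89 to 1.20 over all libraries left out. Nts, the neurotensin precursor, had 0.770 ± 0.312 FPKM dorsally and 4.14 ± 0.631 FPKM ventrally (2.43), and Grp, the precursor of gastrin-releasing peptide, 0.709 ± 0.105 and 2.69 ± 0.737 FPKM (1.92). Tac1, the substance P precursor, had 3.88 ± 0.629 and 7.93 ± 0.728 FPKM (1.03).

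The calls of the enkephalin precursor Penk (0.83) and the neurokinin B precursor Tac2 (0.53) rested on single libraries. Penk was not called without D1, V1, V2, D3 or D4, with log2(V/D) between 0.75 and 0.92 over all libraries left out. Tac2 was called in 0 of 8 such cases, at 0.44 to 0.60. Exons of Penk overlap A830012C17Rik on the opposite strand. Cck, the cholecystokinin precursor and the most abundant of the list, had a mean of 457 FPKM and a log2(V/D) of 0.02. Dbi, the next by level, had 194 ± 7.89 FPKM dorsally and 231 ± 31.6 FPKM ventrally (0.25) and was not called. The precursors thus had levels from under 1 FPKM to the range of Cpe and Chgb.

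The called genes of the dense-core vesicle machinery were mostly V>D. Of 56 genes for vesicle formation, transport and release 53 were tested, with 1 called D>V and 5 V>D (11.3%, beside 3.6% of all genes tested), at a median log2(V/D) of −0.01. Earlier results of these data were known when the list was chosen, so its share and p-values are given as a description. Rph3a, rabphilin, a Rab effector on vesicles, fell ventrally from 55.4, 62.3, 69.0 and 85.1 to 34.6, 39.9, 51.9 and 47.7 FPKM (−0.64, limma adjusted p = 0.0475), and was called in 2 of 8 cases with a library left out, without D1 and without D4 (−0.74 to −0.52 over all 8). Its lowest dorsal library, D1, was above the highest ventral library, D4, as for Chgb. The most abundant genes of the list were not called and had slightly lower ventral means. These were Snap25 (3564 and 3077 FPKM, −0.21), Kif1b (455 and 444 FPKM, −0.03) and Vamp2 (359 and 349 FPKM, −0.04).

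The 5 V>D genes of this list encode synaptotagmins or the calcium sensor Doc2b, all of them at low levels. Syt17 rose from 4.30 ± 0.865 to 10.3 ± 1.92 FPKM (1.25, limma adjusted p = 0.00279), Syt10 from 4.04 ± 0.320 to 8.20 ± 0.795 FPKM (1.02, limma adjusted p = 0.000712) and Syt6 from 2.10 ± 0.252 to 3.73 ± 0.489 FPKM (0.82, limma adjusted p = 0.0103). Doc2b rose from 0.739 ± 0.117 to 2.39 ± 0.369 FPKM (1.69, limma adjusted p = 0.00165). Syt9 (0.77, limma adjusted p = 0.0341) was called in 2 of 8 cases with a library left out, without V3 and without V4 (0.68 to 0.83 over all 8), and not after rescaling (0.82). Exons of Doc2b and Syt6 overlap genes on the opposite strand.

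**Figure D5:**
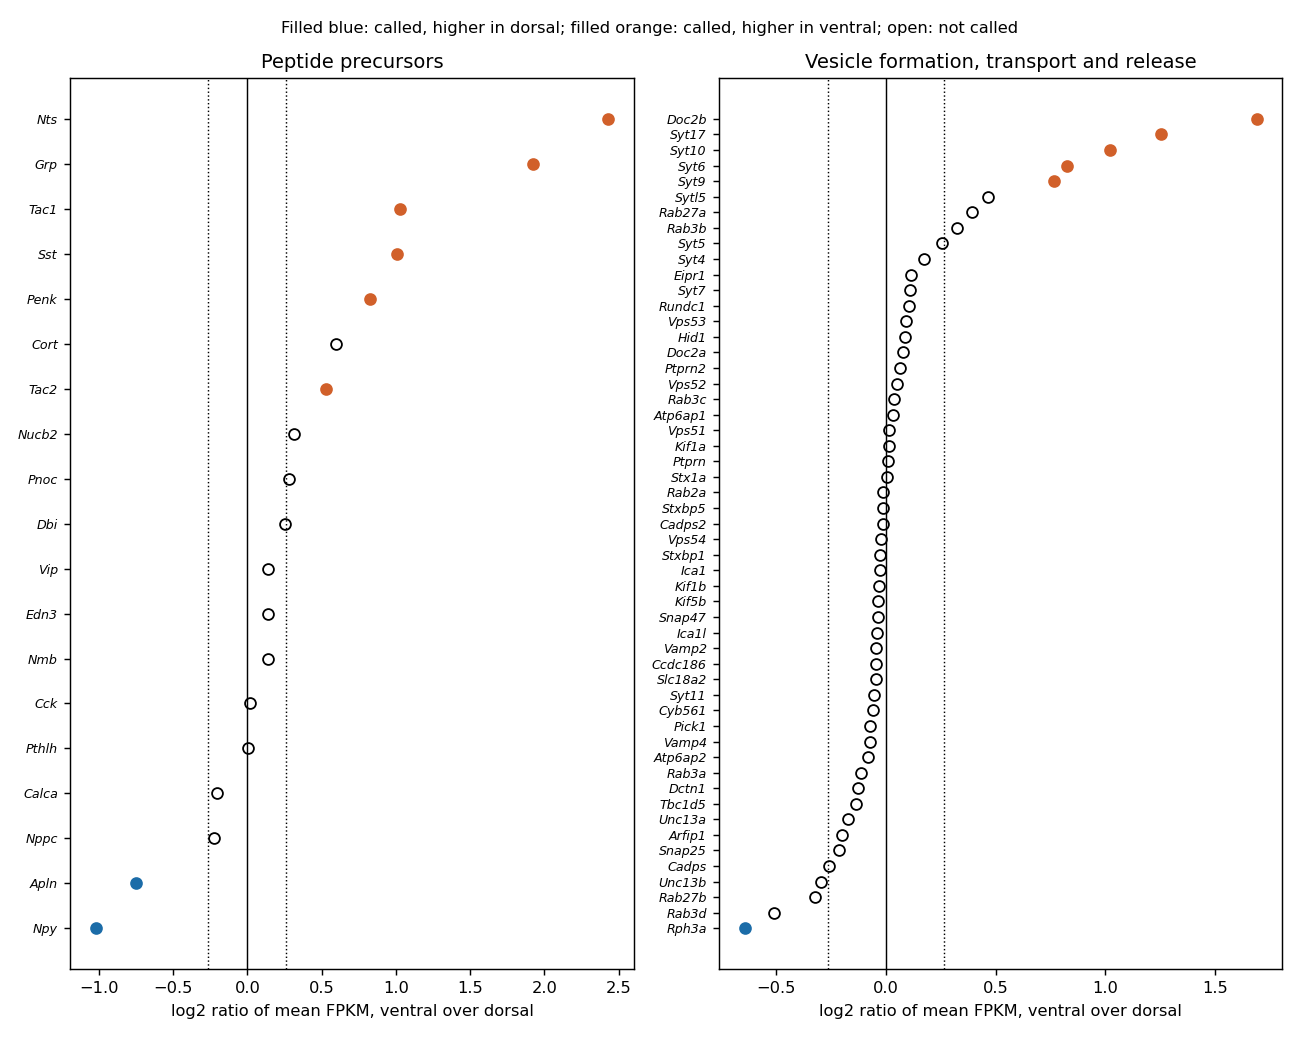
log2 ratio of the mean ventral to the mean dorsal FPKM (x axis) of the tested peptide precursors (left) and dense-core vesicle genes (right). Filled points are called genes and dotted lines mark a 20% difference. Of the precursors 8 of 19 are filled and of the vesicle genes 6 of 53, from Npy (−1.02) to Nts (2.43) and from Rph3a (−0.64) to Doc2b (1.69).

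Vgf, Scg2 and Pcsk1 are known to respond to neuronal activity, so activity-regulated genes were set beside them. Of 20 such genes 18 were tested, with 3 called D>V and 0 V>D (16.7%), where 3.6% of all genes tested were called and 2.15% as D>V. The median log2(V/D) was −0.35, and 15 of the 18 had a lower mean ventrally, as did 51.2% of all genes tested. This list was chosen with earlier results of these data known, so its shares and p-values are given as a description. Bdnf, the neurotrophin, fell ventrally from 12.7 ± 0.868 to 8.10 ± 1.01 FPKM (−0.65, limma adjusted p = 0.00687), as did Dusp6, a phosphatase of ERK, from 8.47 ± 1.07 to 4.32 ± 0.488 FPKM (−0.97, limma adjusted p = 0.00216). Homer1, a postsynaptic scaffold, fell from 40.6 ± 5.60 to 28.7 ± 3.35 FPKM (−0.50, limma adjusted p = 0.0403) and was called in 2 of 8 cases with a library left out, without D2 and without V3 (−0.57 to −0.41 over all 8). Egr1 (−0.53, limma adjusted p = 0.0629), Arc (−0.98, limma adjusted p = 0.0958) and Fos (−0.91, limma adjusted p = 0.229) were not called. Nr4a2, the most abundant gene of the list, had nearly equal means of 181 and 182 FPKM (0.01). Nr4a3 (0.11) and Btg2 (0.03) also had slightly higher ventral means, and Egr2 was at −0.01. Bdnf exons overlap Gm45346 on the opposite strand.

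Of the 17 called genes in these lists, 11 were called in all 8 cases with a library left out and 14 after rescaling to 1 total FPKM. The signs were the same for 17 in the 4 libraries whose header and authors' mean name the same region. This was fixed in advance, since none of the 17 overlapped between regions in the full set of libraries. With the regions of the headers the sign reversed for 10.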

How the data were processed

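FPKM per gene and library were estimated by the authors with Cuffdiff 2 from paired-end reads of amplified cDNA (Ovation RNA-Seq System V2), base-called with CASAVA 1.8 and aligned with TopHat2 2.0.8 to GRCm38 with Ensembl release 73, and deposited without counts. Whether strand was kept, and how libraries were scaled, is not given in the sources used here. The authors' comparison columns (ratio, p and q) and 4 columns with no link to a sample were not used. Here log2(FPKM + 1) was tested across all 13674 genes with limma 3.58.1 (R 4.3.3) with a mean-variance trend and Benjamini-Hochberg adjustment, standing in for the authors' Cuffdiff test, with their limits of a mean of at least 1 FPKM and a 20% difference. A constant of 1 shrinks changes of low genes, so printed ratios are of mean FPKM. The member genes and lists were chosen with earlier results of these data known. Genes named are the 10 members, called list genes, the highest list genes and the nearest profiles. Cpm, Cpxm2, Pcsk5, Qpct, Egr1, Arc, Fos, Nr4a3, Btg2, Egr2 and the marker genes not called were named after their values were seen. A marker gene is not reported here and is in no sum. The planned sign-flip test of neighbouring levels is not reported, since libraries share pools. P-values measure the spread between libraries of a region, in which pools, dissection, RNA preparation and sequencing cannot be told apart. They come from an unpaired test, although both regions came from the same pools.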

Additional observations from a re-analysis of the deposited data

Results flagged for a closer look

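In 3 of 76 groups of 4 libraries, 1 library stood farther from the others than Dixon's 95% limit, where chance gives about 1 in 20 groups. Vgf was lowest in the ventral library V3, at 7.63 FPKM. Penk was lowest in the dorsal library D1, at 1.56 FPKM. Mog was lowest in the ventral library D3, at 8.21 FPKM. D3 also held the lowest ventral Chgb, oligodendrocyte marker sum and total FPKM.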

How the results depend on the processing

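Of 210 log2(V/D) values of the 10 genes under 21 alternatives, 201 moved by less than the spread between libraries. The 294 D>V and 198 V>D genes became 143 and 110 at a 50% difference and 195 D>V after rescaling to 1 total FPKM, which moved the median log2 change of all genes from −0.01 to 0.04. Without single libraries they ranged from 157 to 341 and from 91 to 191. The regions of the headers gave 1 D>V and 0 V>D gene and the 4 libraries with the same region in both 0 and 0. The 2 called members became 1 at a 50% difference and 1 after rescaling, 0 under either other choice of regions, and 1 to 2 without single libraries. The vesicle genes, 1 D>V and 5 V>D, became 0 D>V without the variance trend or with genes of few alignments kept, 2 V>D at a minimum of 5 FPKM, 0 under either choice of regions, and 0 to 1 and 4 to 6 without single libraries. The precursors, 2 D>V and 6 V>D, became 1 and 3 at that minimum, 0 and 0 under either choice of regions, and 2 and 3 to 6 without single libraries. The 3 activity-regulated genes became 0 under either choice of regions and 2 to 4 without single libraries. With sample quality weights 1 other processing enzyme was called D>V. Under the headers' regions log2(V/D) changed sign for 5 of the 10 members, and of called genes it reversed for Chgb (0.24), Rph3a (0.16), Syt9 (−0.25), Syt10 (−0.10), Syt17 (−0.24), Doc2b (−0.14), Npy (0.25), Penk (−0.23), Tac1 (−0.12), Tac2 (−0.10), Homer1 (0.014), Mbp (0.091), Mog (0.092), Cnp (0.025), Mobp (0.24), Dcn (−0.20), Igfbp2 (−0.023), Fibcd1 (−0.43) and Fn1 (−0.10). By the authors' means, each region of the headers mixes dorsal and ventral libraries. Why the headers and the means differ was not tested. No paired analysis was possible because neither the headers nor the labels tie a library to its pool of mice. Depth is unknown from FPKM.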
